A study of Mus musculus with 6 samples.

Results

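The genes described here are 35 members of the cell division programme: 10 genes of DNA replication, 11 of mitosis, 8 cyclins and cyclin-dependent kinases (Cdks) of the G1 phase and the entry into S phase, the transcription factor gene E2f1 with its inhibitor Rb1, and 4 genes of Cdk inhibitors. They were chosen by name, and each was found by its Ensembl identifier among the 41388 gene identifiers of the count tables. All 35 had counts in every library and passed the filter on low counts that precedes the test between the sexes.

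The study measured RNA of Ret-positive cells of dorsal root ganglia, the clusters of sensory neurons beside the spinal cord. Ganglia of segments T11 to S1 were taken from C57BL/6 mouse embryos at 18.5 days post coitum, and cells with the green fluorescent protein EGFP reporting on Ret, the receptor of GDNF-family growth factors, were sorted by flow cytometry. The sample records give the genotype as Tg(Ret-EGFP)SJ, whereas the series description speaks of EGFP knocked into the Ret locus of heterozygous mice, so the kind of reporter allele is not settled by the sources used here. All 6 libraries carry the reporter and none had a treatment: 3 are of male embryos (A, C and D) and 3 of female embryos (A, B and C). The pools held 60 ganglia from 3 embryos in male A and female A, 40 ganglia from 2 embryos in male C and D, and 20 ganglia from 1 embryo in female B and C. The pools of male C and of female A were drawn from different mothers, and female B and female C have their stage recorded under another tag than the other 4 libraries. The sorted cells are a mixed population in which each neuron subtype, and any other EGFP-bright cell, adds to 1 library.

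Total counts ran from 17861500 to 29330101 per library, and 3 counts, taken as the limit of detection, equal 0.102 to 0.168 CPM, the share of a library's counts scaled to a fixed total. Levels are given as RPKM, the count divided by exon length and by library size, with library sizes scaled by edgeR's trimmed mean of M-values. The sensory neuron markers were high in every library, with Stmn2 at 2290 to 3520 RPKM and Tubb3 at 1660 to 3020 RPKM. Xist, the RNA of the inactive X chromosome, stood at 103 to 199 CPM in the female libraries and at 0.448 CPM (A) and 0.56 CPM (D) in males. Male C goes against its label, with 63.4 CPM of Xist, and is called male C here only by that label. The main log2 changes between the sexes, and the tallies of their direction, are therefore also given without both male A and male C. Male A stands apart by the genes described here, as the values below show. The comparisons of the sexes, the spread and the pairs of genes with a shared role are given with and without male A.

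A dividing cell copies its DNA in S phase and separates the copies in mitosis. D-type cyclins with Cdk4 or Cdk6, then E-type cyclins with Cdk2, phosphorylate the Rb protein, which frees E2F factors to switch on the genes of DNA replication, while the B-type cyclins with Cdk1 drive mitosis. Cdk inhibitors of the Cip/Kip family (Cdkn1a or p21, Cdkn1b or p27) and the Ink4 family (Cdkn2c or p18, Cdkn2d or p19) hold these kinases back. Most sensory neurons of the ganglion have left the cell cycle well before birth, while glial precursors around them still divide.

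In these cells the highest of the 35 mean levels per kilobase was that of an inhibitor, Cdkn2d, and the lowest that of the proliferation marker Mki67. The lowest place turned on male A: without it Cdkn2c averaged 0.186 RPKM and Mki67 0.257 RPKM. That place also turned on dividing by exon length: Cdkn2c had fewer counts than Mki67 in every library, 6 to 77 against 19 to 165. Over the 6 libraries, the means were as follows. Cdkn2d averaged 166 ± 30.3 RPKM and Mki67 0.353 ± 0.276 RPKM (SD, n = 6). Of the 14958 genes tested, 97.6% had a lower mean level than Cdkn2d and 8.33% a lower one than Mki67. Between them, Cdkn1a at 46.1 ± 4.87 RPKM and Cdk4 at 44.9 ± 16.7 RPKM stood above 90.8% and 90.6% of tested genes. The mean per gene was higher for S phase than for mitotic genes. Outside male A it was 6.48 to 7.55 RPKM for the 10 S phase members and 1.25 to 1.73 RPKM for the 11 mitotic members. Single genes of the 2 roles overlapped. Averaged without male A, Pcna, Mcm4, Mcm6, Rrm1 and Rrm2 lay at 8.85 to 15.4 RPKM. Mcm2, Mcm3, Mcm5, Mcm7 and Tyms lay at 1.93 to 2.83 RPKM, below the highest mitotic member, Cdk1, at 2.94 RPKM. On GRCm38, Cdkn2d lies at chr9:21288463-21291209 (minus strand, 1271 bases of exon, ENSMUSG00000096472) and Mki67 at chr7:135689788-135716379 (minus strand, 10075 bases of exon, ENSMUSG00000031004).

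**Figure D1:**
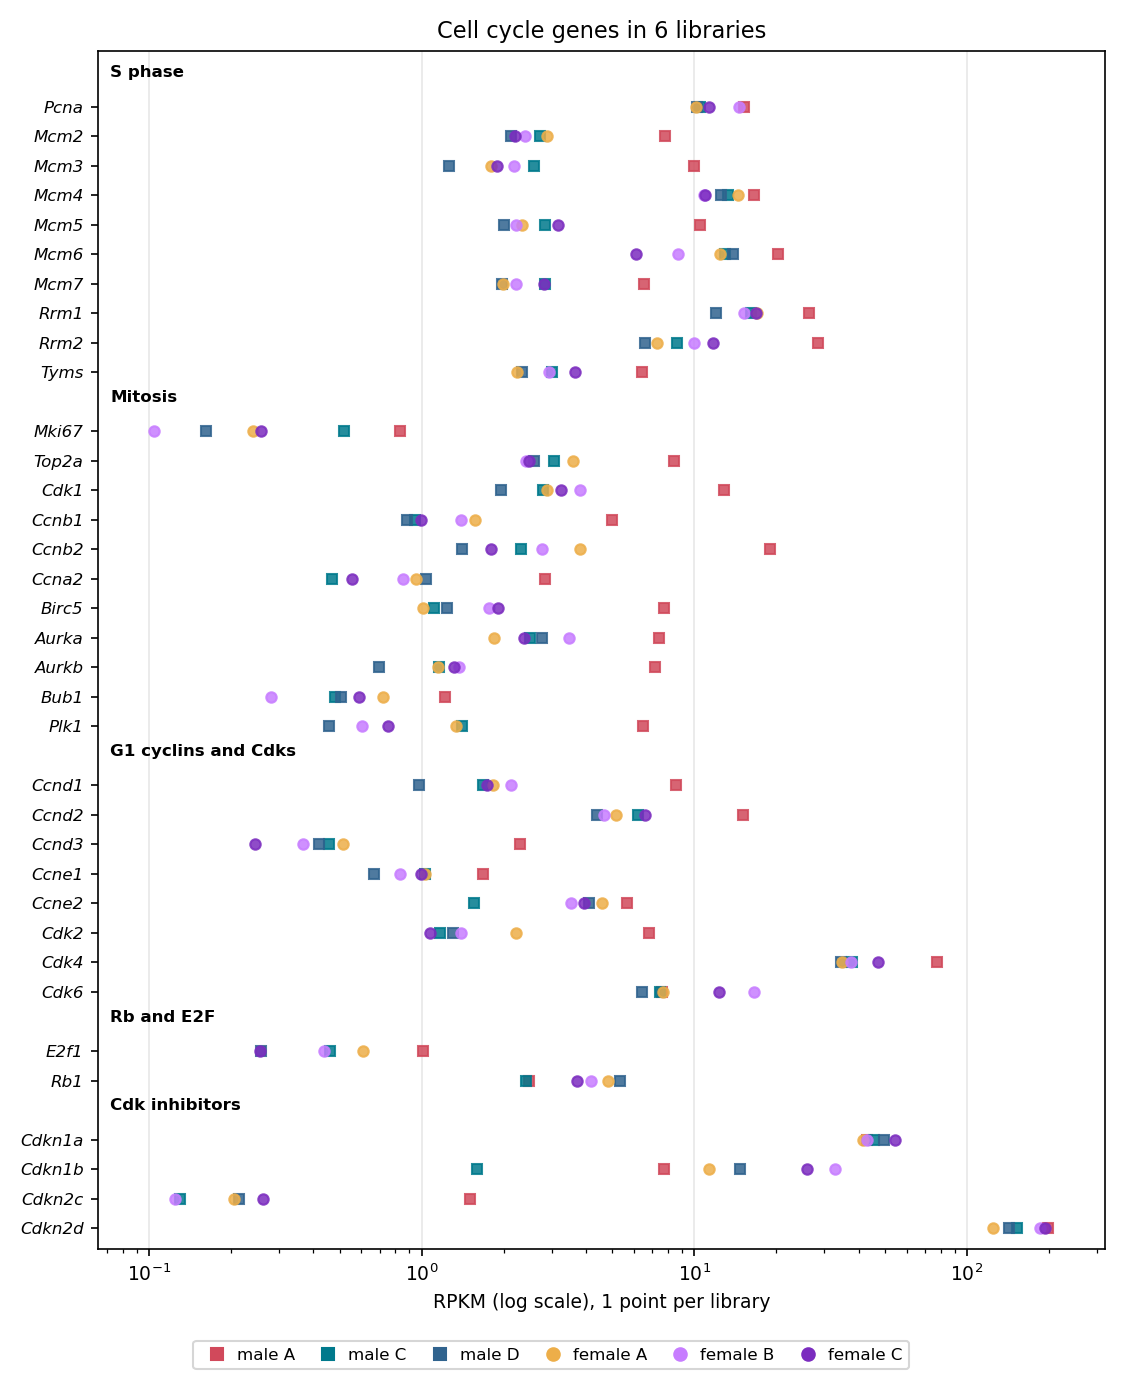
Level of each of the 35 genes in each library, in RPKM on a log axis, with squares for the 3 male and circles for the 3 female libraries and 1 point per library. Cdkn2d is highest and Mki67 lowest on average, and male A (red squares) is the highest point for 31 of the 35 genes.

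The S phase members include the 6 subunits of the Mcm2-7 helicase that opens DNA at replication origins. Mcm4 and Mcm6 were the most abundant, at 13.1 ± 2.18 and 12.4 ± 4.83 RPKM (SD, n = 6). The other helicase genes averaged between 3.05 RPKM for Mcm7 and 3.84 RPKM for Mcm5, although the 6 proteins form a complex with 1 copy of each. Mcm4 was the steadier of the pair, with 16.5, 13.3 and 12.5 RPKM in male A, C and D and 14.5, 10.8 and 10.9 RPKM in female A, B and C. Mcm6 read 20.2, 13.0 and 13.8 RPKM in the males against 12.4, 8.73 and 6.09 RPKM in the females. Every male library was above every female library for Mcm6, which lies at chr1:128331590-128359664 (minus strand, 4666 bases of exon, ENSMUSG00000026355). The sexes lay apart in this way, in either direction, for 8.06% of all tested genes.

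Mcm2, Mcm3, Mcm5 and Mcm7 shared another pattern, with male A alone far above the rest. Mcm3 stood at 10.0, 2.57 and 1.26 RPKM in male A, C and D, and at 1.79, 2.17 and 1.88 RPKM in the females. Mcm5 stood at 10.5 RPKM in male A and between 2.00 and 3.16 RPKM in the other 5 libraries. Mcm2 had 7.77 RPKM in male A against 2.13 to 2.87 elsewhere. Mcm7 had 6.53 RPKM in male A against 1.97 to 2.82 elsewhere. An annotated near-identical copy, Gm5487, covers 72.8% of the longest Mcm7 transcript, so how the counting shared reads between them is uncertain.

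Pcna encodes the sliding clamp of DNA polymerases and also serves DNA repair, which goes on in cells that no longer divide. It was among the steadiest members, with 15.2, 10.5 and 10.2 RPKM in the males and 10.1, 14.6 and 11.3 RPKM in the females. The groups overlapped throughout, and male A was 1.04 times the highest other library. A processed copy, Pcna-ps2, matches 51.4% of its longest transcript.

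Rrm1 and Rrm2 encode the large and small subunits of ribonucleotide reductase, which makes deoxynucleotides. Rrm1 read 26.4, 16.1 and 12.0 RPKM in the males and 17.0, 15.2 and 16.8 RPKM in the females. Rrm2 read 28.5, 8.62 and 6.57 RPKM in the males and 7.31, 10.0 and 11.7 RPKM in the females. Rrm1 was thus higher than Rrm2 in every library but male A. Tyms, the enzyme that makes thymidylate, had 6.40 RPKM in male A and 2.23 to 3.66 RPKM elsewhere. Annotated copies match 19.1% of the longest Rrm2 transcript (Gm48455) and 17.3% of that of Tyms (Tyms-ps).

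Promoter windows of RefSeq (build GRCm38.p6 of the table), each of 300 bases from 250 before to 50 from the start onward, were found for 28 of the 35 genes in 32 windows. They were searched on both strands for the E2F letters TTTCCCGC, TTTGGCGC, TTTGCCGC and TTTCGCGC, for the cell cycle homology region as TTTGAA or TTCGAA, and for CCAAT. The E2F letters were present in 4 of the 10 windows of S phase genes and in 2.26% of all 32851 windows. CCAAT was present in 9 of the 10 and in 37.4% of all windows. Mcm6 and Mcm3 are shown because each holds E2F letters several times and yet their levels differed in pattern, with capitals for E2F and CCAAT letters in either direction. The Mcm6 window is chr1:128359656-128359955 and that of Mcm3 is chr1:20820263-20820562, both on the minus strand and printed 5′ to 3′ along the gene. In Mcm6, 2 of the E2F matches overlap each other.
Mcm6: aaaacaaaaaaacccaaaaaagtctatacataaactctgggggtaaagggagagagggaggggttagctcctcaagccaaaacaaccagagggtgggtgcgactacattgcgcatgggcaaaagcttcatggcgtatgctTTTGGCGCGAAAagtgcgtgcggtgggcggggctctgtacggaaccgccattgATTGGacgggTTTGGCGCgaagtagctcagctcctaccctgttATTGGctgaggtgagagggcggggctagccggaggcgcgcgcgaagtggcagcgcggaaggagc
Mcm3: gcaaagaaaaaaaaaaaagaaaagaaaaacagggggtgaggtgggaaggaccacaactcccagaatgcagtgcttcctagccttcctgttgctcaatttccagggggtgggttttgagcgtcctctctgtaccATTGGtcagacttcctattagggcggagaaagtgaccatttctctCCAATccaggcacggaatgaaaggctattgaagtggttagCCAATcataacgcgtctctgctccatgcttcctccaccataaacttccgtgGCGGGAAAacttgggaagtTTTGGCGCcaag
A match of letters is a description of the sequence and not a measurement of binding. Which windows are printed was decided after the values had been seen.

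The mitotic members were low in 5 of the 6 libraries. Mki67, a coat protein of mitotic chromosomes and the usual marker of cycling cells, had 19 to 165 counts per library. It read 0.835, 0.518 and 0.162 RPKM in the males and 0.240, 0.104 and 0.258 RPKM in the females, with male A and male C above the rest. Bub1, a kinase of the spindle checkpoint, was next lowest of the mitotic genes at 0.633 ± 0.324 RPKM (SD, n = 6), with 22 to 102 counts.

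Cdk1, the kinase that drives mitosis, had 12.8, 2.79 and 1.96 RPKM in the males and 2.89, 3.81 and 3.25 RPKM in the females. Its partner Ccnb2, cyclin B2, had 18.9, 2.32 and 1.4 RPKM in the males and 3.79, 2.76 and 1.79 RPKM in the females. Ccnb1, cyclin B1, had 4.98 RPKM in male A and 0.886 to 1.57 RPKM elsewhere. For all 3 the libraries other than male A lay below it and the sexes overlapped. Ccnb2 still varied by 38.5% without male A, against 23.0% for Cdk1 and 26.2% for Ccnb1. Annotated pseudogenes, each near-identical to up to 51.9% of the longest Ccnb1 transcript, make the level of that gene uncertain.

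Plk1, a kinase of mitotic entry and spindle assembly, had 6.45, 1.41 and 0.457 RPKM in the males and 1.33, 0.603 and 0.750 RPKM in the females. Outside male A its levels fell into a higher pair, male C and female A, and a lower trio. Aurka and Aurkb, the Aurora kinases of the spindle poles and of the chromosomes, had 7.43 and 7.16 RPKM in male A. Elsewhere Aurka ranged from 1.84 to 3.48 RPKM and Aurkb from 0.699 to 1.37 RPKM. Birc5, or survivin, works with Aurkb at the centromere and stood at 7.72 RPKM in male A and 1.01 to 1.91 RPKM elsewhere.

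Top2a, the topoisomerase that untangles sister chromatids, averaged 3.76 ± 2.34 RPKM (SD, n = 6), with 8.45 RPKM in male A and 2.41 to 3.58 RPKM in the others. Ccna2, cyclin A2, which acts from S phase into mitosis, had 2.84 RPKM in male A and 0.469 to 1.04 RPKM in the others. Its exons share 12.5% of their length with Exosc9 on the opposite strand, and the library kit does not mark strand, so reads of the overlap cannot be assigned.

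In the promoter windows of the mitotic genes the cell cycle homology region was present in 7 of 9, against 19.2% of all windows and 2 of the 10 windows of S phase genes. CCAAT was present in 8 of 9, and E2F letters in 1 of 9. Ccnb2 and Plk1 are shown because both pair CCAAT with the homology region and because they were furthest above the other libraries in male A among mitotic genes by ratio to the median. Capitals mark CCAAT and the homology region. The windows are chr9:70421505-70421804 on the minus strand and chr7:122159185-122159484 on the plus strand.
Ccnb2: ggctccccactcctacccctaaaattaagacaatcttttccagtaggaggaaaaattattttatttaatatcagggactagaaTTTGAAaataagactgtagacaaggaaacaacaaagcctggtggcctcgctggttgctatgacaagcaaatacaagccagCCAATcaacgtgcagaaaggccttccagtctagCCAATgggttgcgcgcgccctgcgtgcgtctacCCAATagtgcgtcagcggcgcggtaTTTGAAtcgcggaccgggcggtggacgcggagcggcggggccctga
Plk1: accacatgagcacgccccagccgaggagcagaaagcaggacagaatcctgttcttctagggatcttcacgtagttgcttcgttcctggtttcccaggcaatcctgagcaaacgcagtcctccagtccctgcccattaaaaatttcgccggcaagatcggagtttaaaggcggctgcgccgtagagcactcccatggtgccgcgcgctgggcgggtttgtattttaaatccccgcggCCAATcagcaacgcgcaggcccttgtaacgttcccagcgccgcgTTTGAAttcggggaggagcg
In both windows a TTTGAA lies just after the annotated start, 4 bases on in Ccnb2 and 30 bases on in Plk1, and CCAAT lies upstream.

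Summed over their members, the S phase genes gave 148, 75.5 and 64.8 RPKM in the males and 72.5, 71.3 and 70.5 RPKM in the females. The mitotic sum was 78.9, 16.7 and 13.7 RPKM in the males and 19.1, 18.8 and 16.3 RPKM in the females. Male A was thus 2.08 times the median of the others for the S phase sum and 4.71 times for the mitotic sum. The ratio of the S phase to the mitotic sum was 1.88 in male A and 3.78 to 4.73 in the other 5 libraries, with a mean of 3.84 ± 1.03 (SD, n = 6). Outside male A the sexes overlapped in both sums, while the ratio was 4.51 and 4.73 in male C and male D and 3.78 to 4.34 in the females.

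**Figure D2:**
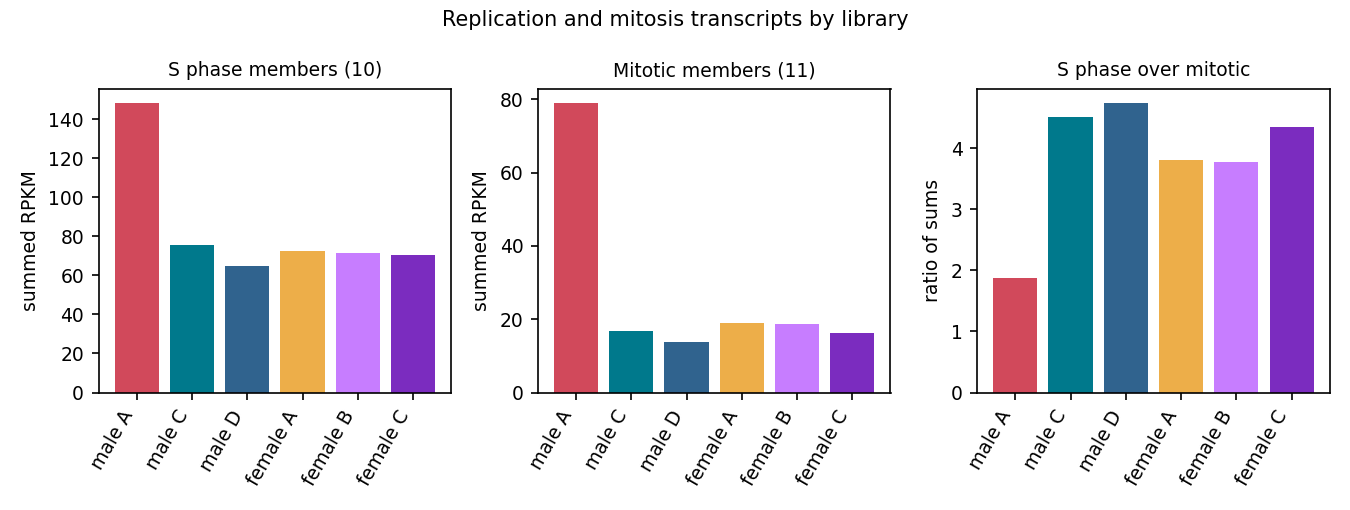
Summed RPKM of the 10 S phase members and of the 11 mitotic members, and the ratio of these sums, with 1 bar per library and axes from 0. Male A has the highest sums, 148 and 78.9 RPKM, and the lowest ratio, 1.88.

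The D-type cyclins and their kinases respond to growth signals in G1. Ccnd2 was the most abundant D-type cyclin, with 15.1, 6.19 and 4.38 RPKM in the males and 5.17, 4.64 and 6.59 RPKM in the females. Ccnd1 had 8.57 RPKM in male A and 0.975 to 2.12 RPKM elsewhere. Ccnd3 had 2.30 RPKM in male A and 0.245 to 0.515 RPKM elsewhere. Ccnd1 shares 23.4% of its exon length with LTO1 on the opposite strand, and 14.9% of the longest Ccnd3 transcript matches Ccnd3-ps.

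Cdk4 had 77.7, 37.8 and 34.6 RPKM in the males and 34.7, 37.4 and 47.0 RPKM in the females. It shares 19.7% of its exon length with Tspan31 on the opposite strand. Cdk6 was the exception among these genes, since male A was not its highest library. It read 7.61, 7.45 and 6.44 RPKM in the males and 7.66, 16.5 and 12.3 RPKM in the females. Every female library was above every male library, but female A exceeded the highest male by little, and female B and C held the high values. A lack of overlap between the sexes, in either direction, was found for 8.06% of all tested genes. Cdk6 lies at chr5:3343893-3523218 (plus strand, 3735 bases of exon, ENSMUSG00000040274).

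The E-type cyclins drive entry into S phase with Cdk2. Ccne2 averaged 3.90 ± 1.36 RPKM and Ccne1 1.04 ± 0.341 RPKM (SD, n = 6). Ccne2 ranged from 3.53 to 5.65 RPKM in 5 libraries and was 1.56 RPKM in male C, the lowest. Its exons share 17.4% of their length with Ints8 on the opposite strand. Cdk2 had 6.83 RPKM in male A and 1.07 to 2.21 RPKM elsewhere.

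E2f1 had 16 to 61 counts per library and averaged 0.505 ± 0.281 RPKM (SD, n = 6), with 1.01 RPKM in male A and 0.254 to 0.608 RPKM elsewhere. Rb1, which restrains E2F factors, followed another order. It read 2.48, 2.41 and 5.35 RPKM in the males and 4.83, 4.18 and 3.72 RPKM in the females, so that male A and male C were the 2 lowest. The exons of Rb1 share 8.11% of their length with Rcbtb2 and 6.78% with Lpar6, both on the opposite strand.

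Among the inhibitors, Cdkn2d had 198, 153 and 142 RPKM in the males and 125, 185 and 193 RPKM in the females. It made up 68.8 to 79.2% of the summed level of the 4 inhibitor genes in each library. Cdkn2d and Cdkn1b are the inhibitors that keep neurons out of the cell cycle in the mouse brain, where loss of both lets neurons re-enter it. Cdkn1a had 42.9, 45.5 and 49.6 RPKM in the males and 41.7, 42.8 and 54.2 RPKM in the females. Its coefficient of variation of 10.6% was the lowest of all 35 genes. Male A was not apart for either gene.

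Cdkn1b had 7.76, 1.60 and 14.7 RPKM in the males and 11.3, 32.7 and 25.8 RPKM in the females. Male C was lowest, with 230 counts, while female B had 2691 counts. The gene lies at chr6:134920401-134925513 (plus strand, 4552 bases of exon, ENSMUSG00000003031). Cdkn1b and Cdkn1a contrast within the same family: Cdkn1b varied by 74.1% over the 6 libraries. Cdkn2c was near the lower end of detection, with 6 to 77 counts. It read 1.5 RPKM in male A and 0.124 to 0.261 RPKM in the other libraries. E2F letters and the homology region were in 0 of the 6 windows of inhibitor genes, and CCAAT was in 3 of the 6. The Cdkn2d window, chr9:21291160-21291459 on the minus strand, is shown because it belongs to the most abundant member and holds neither of the first 2 motifs in these spellings. Capitals mark CCAAT on the opposite strand.
Cdkn2d: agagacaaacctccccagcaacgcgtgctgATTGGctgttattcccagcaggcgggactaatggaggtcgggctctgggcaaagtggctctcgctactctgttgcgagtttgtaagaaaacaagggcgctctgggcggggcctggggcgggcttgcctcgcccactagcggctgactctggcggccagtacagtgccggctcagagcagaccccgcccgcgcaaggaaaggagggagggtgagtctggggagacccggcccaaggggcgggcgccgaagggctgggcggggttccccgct
Absent letters say nothing about which factors act on this gene.

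Genes with a shared role were compared within each library, by an exact paired permutation test over all 64 sign changes of the 6 differences in log2 RPKM, two-sided and adjusted over 11 pairs. The smallest p that 6 libraries allow is 0.0312, or 0.0344 after adjustment, and 10 of the 11 pairs reached it. Each fold below is the geometric mean of 6 ratios of levels per kilobase.

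Ccnd2 was 2.98 times Ccnd1, which was 4.07 times Ccnd3, in 6 of 6 libraries (log2 differences of -1.57 ± 0.52 for Ccnd1 minus Ccnd2 and 2.03 ± 0.57 for Ccnd1 minus Ccnd3, SD, n = 6). Ccnd2 was 12.1 times Ccnd3. Cdk4 was 4.71 times Cdk6 and Cdk1 2.05 times Cdk2, again in 6 of 6 libraries. The gap between Cdk4 and Cdk6 was widest in male A, with a log2 difference of 3.35, and narrowest in female B, with 1.18. Ccne2 was 3.65 times Ccne1, and Cdkn1a 4.18 times Cdkn1b. Cdkn2d was 642 times Cdkn2c, from a log2 difference of 7.05 in male A to 10.55 in female B. Rrm1 was 1.59 times Rrm2 but not in male A, and did not pass (log2 difference 0.67 ± 0.45, SD, n = 6, adjusted p = 0.0625 by the exact permutation test). Without division by exon length it did pass (log2 difference 1.19, adjusted p = 0.043 by the same exact test). Aurka was 2.01 times Aurkb and Ccnb2 2.24 times Ccnb1. The last 2 calls, and that of Cdkn1a over Cdkn1b, depend on dividing by exon length: without it the log2 difference of Aurka over Aurkb was 0.79, and Ccnb1 was above Ccnb2 by 0.29. With 5 libraries the test cannot pass the threshold, so the pairs without male A are values only. No mean difference changed sign without it: Cdkn2d minus Cdkn2c was 9.78, Ccnd2 minus Ccnd3 3.78, Cdk4 minus Cdk6 2.01, Aurka minus Aurkb 1.19 and Rrm1 minus Rrm2 0.82.

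**Figure D3:**
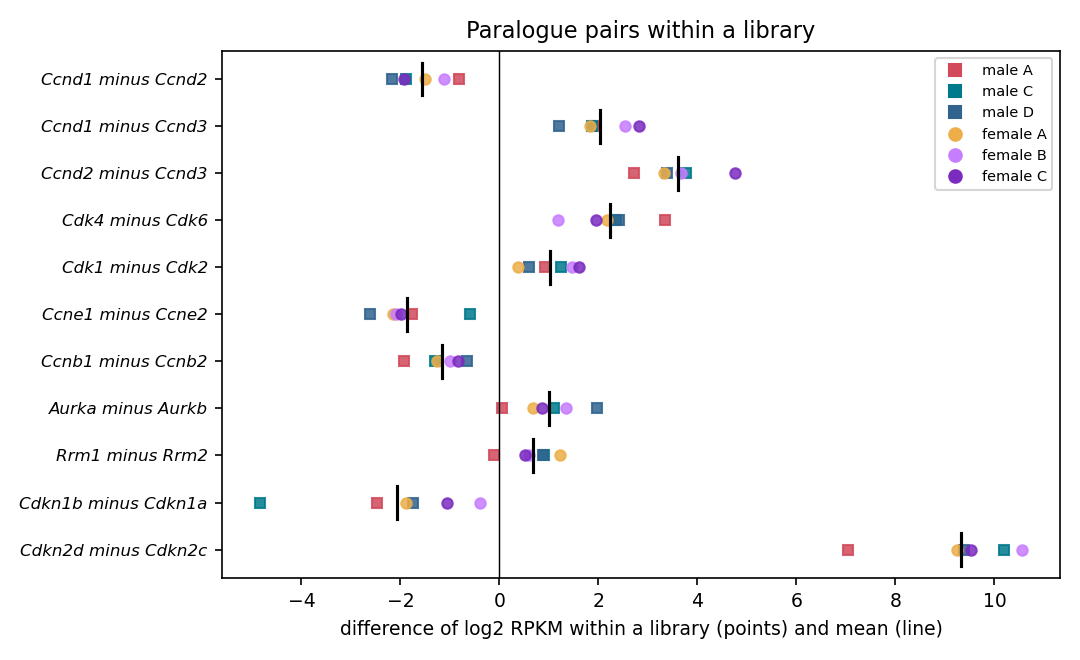
Difference in log2 RPKM between the 2 genes of each pair, with 1 point per library (squares male, circles female) and a line at the mean of 6 libraries. All 6 points lie on the same side of 0 for 10 of the 11 pairs, and male A crosses 0 for Rrm1 and Rrm2.

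Spread between libraries was wide for this group. The median coefficient of variation was 62.2% for the 35 genes and 25.3% for all 14958 tested genes. Without male A these medians were 25.0% and 20.2%. The steadiest over the 6 libraries were Cdkn1a (10.6%), Mcm4 (16.7%), Cdkn2d (18.2%) and Pcna (19.3%), while Mki67 and Cdkn1b still varied by 61.9% and 71.0% without male A. Male A was the highest library for 31 of the 35 genes, against 31.1% of all tested genes, and it was at least 2-fold above the highest other library for 19, against 4.41%. The 4 exceptions were Cdk6, Rb1, Cdkn1a and Cdkn1b. By ratio to the median of the other libraries, Plk1 (8.60), Ccnb2 (8.17), Cdkn2c (7.34), Birc5 (6.23) and Aurkb (6.18) were furthest up. By Dixon's criterion for a library apart from the rest (the gap to the nearest value over the range, at the 95% level), 23 of the 35 genes were marked, against 12.4% of all tested genes, and in all 23 the library was male A on the high side. These counts were made after male A had been seen to stand apart.

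Other genes of the same processes were taken from lists that hold no member. Of 40 other replication genes, all of them tested, male A was highest for 26 and at least 2-fold above the rest for 9. Their summed level was 394 RPKM in male A and 306 to 320 RPKM elsewhere. The most abundant were Orc6, a subunit of the origin recognition complex, at 45.5 ± 4.54 RPKM, and Rfc2, of the clamp loader, at 33.0 ± 8.06 RPKM (SD, n = 6). Of 40 other mitotic genes 39 were tested, and male A was highest for 35 and at least 2-fold above the rest for 24. Their sum was 382 RPKM in male A and 193 to 219 RPKM elsewhere. The most abundant of them, the checkpoint gene Bub3 at 92.4 ± 14.8 RPKM and the securin gene Pttg1 at 30.4 ± 2.92 RPKM, varied little, with 33.5 RPKM of Pttg1 in male A and 25.2 to 32.8 RPKM elsewhere.

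Of 13 genes of the anaphase-promoting complex, the ubiquitin ligase that ends mitosis and is also active in neurons, male A was highest for 7 and at least 2-fold above for 1. Anapc5 averaged 117 ± 25.0 RPKM and Anapc11 53.6 ± 7.10 RPKM (SD, n = 6). For the other cyclins and Cdks, male A was highest for 2 of 17 tested and 2-fold above for 0. Cdk5, a kinase of postmitotic neurons, stood at 90.7 ± 10.5 RPKM and Ccnh, the cyclin of Cdk7, at 44.7 ± 9.25 RPKM. Of the Rb, E2F and DREAM complex genes, male A was highest for 7 of 19, and Rbbp4 and Lin37, both subunits of the MuvB core of that complex, averaged 35.9 ± 3.53 and 28.1 ± 4.79 RPKM.

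Among the other Cdk inhibitors, Cdkn1c (p57) had 33.3 RPKM in male A and 5.34 to 14.3 RPKM elsewhere. Cdkn3, a phosphatase of Cdks, had 13.7 RPKM in male A and 3.88 to 7.80 RPKM elsewhere. Cdkn2a had 0 counts in all 6 libraries, which allows at most 0.102 to 0.168 CPM at these depths, counting error only. Of 10 p53 target genes male A was highest for 5. Bax, which promotes cell death, averaged 93.3 ± 24.1 RPKM, with 138 RPKM in male A, and Btg2, an antiproliferative gene, averaged 25.4 ± 7.98 RPKM, with 39.6 RPKM in female B.

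Markers of other cell types moved with male A as well. Of the 15 tested genes of 16 listed for satellite glia and Schwann cells, male A was highest for 11 and at least 2-fold above for 8, and the list summed to 1750 RPKM in male A against 904 to 1110 RPKM elsewhere. Within that list Pmp22 had 511 RPKM in male A and 207 to 334 RPKM elsewhere, whereas Fabp7 was lowest in male A, with 269 RPKM against 331 to 439 RPKM. Fibroblast and meningeal markers (8 of 9 tested) summed to 449 RPKM in male A and 168 to 225 RPKM elsewhere, with Col1a1 at 111 RPKM against 5.28 to 13.0 RPKM and Dcn at 138 RPKM against 129 to 190 RPKM. Of these 8 tested genes, male A was highest for 7 and at least 2-fold above for 4.

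Endothelial and pericyte markers (9 of 10 tested) summed to 22.4 RPKM in male A and 8.63 to 17.6 RPKM elsewhere, with Rgs5 at 7.23 ± 2.88 RPKM and Pdgfrb at 4.82 ± 1.4 RPKM (SD, n = 6) as the most abundant. Of the 9 tested genes, male A was highest for 8 and at least 2-fold above for 6, while Rgs5 had 5.93 RPKM in male A against 3.58 to 12.0 RPKM elsewhere. Macrophage and immune markers (3 of 9 tested) summed to 14.9 RPKM against 8.83 to 12.9 RPKM, with Fcer1g at 9.23 ± 1.51 RPKM and C1qb at 0.673 ± 0.599 RPKM (SD, n = 6). Male A was highest for all 3 tested and at least 2-fold above for 0. Erythroid markers (6 of 8 tested) did not follow male A, at 18.5 RPKM against 15.5 to 71.9 RPKM, and their most abundant genes Hbb-bs and Hbb-bt ranged from 4.44 to 37.5 and from 2.21 to 15.2 RPKM. Sensory neuron markers summed to 6730 RPKM in male A and 6620 to 9280 RPKM elsewhere. No listed cell type marker had 0 counts in all libraries. The part of other cell types in the levels of the division genes was not tested, and in bulk RNA more cells of a type and more RNA per cell cannot be told apart.

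**Figure D4:**
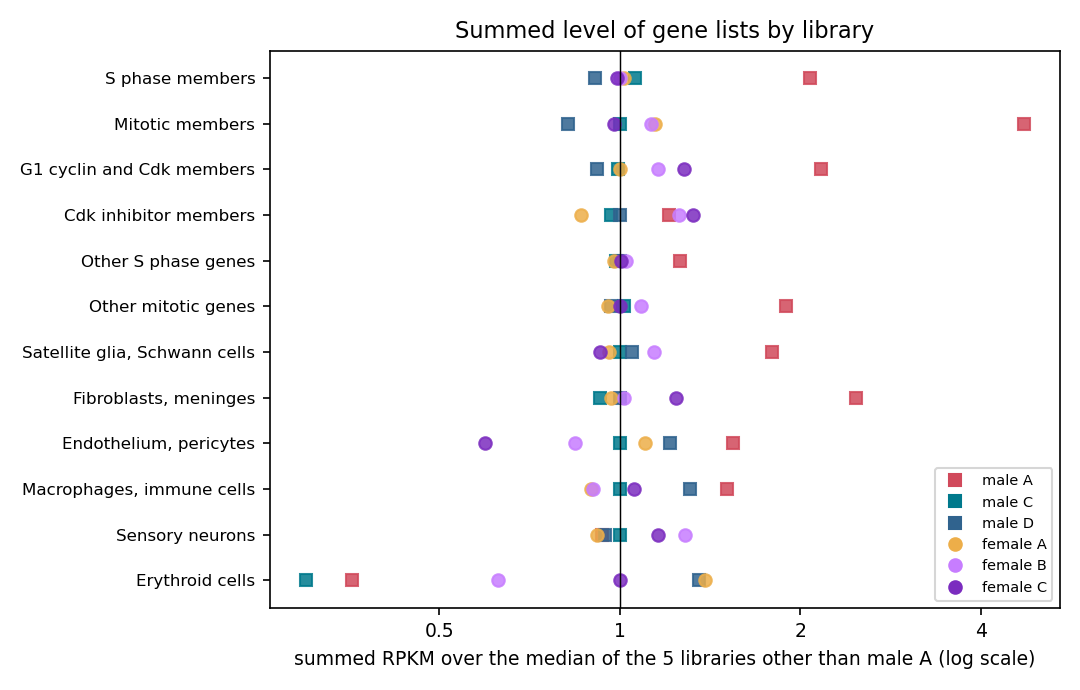
Summed RPKM of the member roles, of other replication and mitotic genes and of cell type markers in each library, divided by the median of the 5 libraries other than male A, on a log axis. Among the lists drawn, male A stands highest by this sum for the mitotic members (4.71), followed by the fibroblast markers (2.47), the G1 cyclin and Cdk members (2.17) and the S phase members (2.08), and it lies left of 1 for erythroid cells (0.357). The median fold of the tested genes, not drawn, gave another order: fibroblast markers 5.23, mitotic members 4.44, endothelial markers 4.06 and macrophage markers 3.31. It was 2.99 for glial markers, 2.54 for S phase members, 2.46 for G1 members, 0.791 for sensory neuron markers and 0.373 for erythroid markers.

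The labels name the sexes as the groups, and the 35 genes were read from a fit over all genes. None passed the test between female and male libraries (edgeR quasi-likelihood, Benjamini-Hochberg over 14958 genes, threshold 0.05). The fit called 4 genes in all, 0.0267% of those tested. At unadjusted p under 0.05 there were 4 of the 35 and 661 of all tested genes. DESeq2 and limma voom also called 0 of the 35, with 6 and 3 at unadjusted p under 0.05. Of all 14958 tested genes, DESeq2 called 13 and had 849 at unadjusted p under 0.05. Limma voom called 1 and had 671. The smallest adjusted p among the 35 was 0.961.

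The direction of the values turned on male A. With all 6 libraries 28 of the 35 genes were lower in females, with a median log2 change of -0.72, while 50.5% of all tested genes were lower, with a median of -0.004. Without male A 8 of the 35 were lower and the median was 0.13. Without male C alone 32 were lower and the median was -0.91. Without both male A and male C, 9 were lower and the median was 0.31. That subset has male D as its only male library, so its tallies describe the females against 1 library. No gene of the 35 was called without male A or without male C. By role the tallies turned as well. With the 6 libraries 11 of 11 mitotic members were lower in females (median log2 change -0.87), and without male A 3 of 11 were (median 0.11). For the S phase members these counts were 9 of 10 (median -0.64) and 3 of 10 (median 0.06), and for the G1 cyclins and Cdks 6 of 8 (median -0.49) and 1 of 8 (median 0.25). Without both male A and male C, 2 of 11 mitotic members (median 0.32) and 2 of 10 S phase members (median 0.27) were lower. Of the G1 cyclins and Cdks 2 of 8 were (median 0.28). Of all tested genes 47.1% were lower without male A and 47.9% without both.

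In 2 of the 35 genes the sexes did not overlap, Mcm6 and Cdk6, against 8.06% of all tested genes. Mcm6 averaged 15.7 ± 3.94 RPKM in males and 9.08 ± 3.18 RPKM in females (SD, n = 3), a log2 change of -0.79 with an SE of 0.30 and an adjusted p of 0.961 by edgeR. Without male A it was -0.56 with an SE of 0.28, and without both male A and male C it was -0.62. Over the 4 libraries whose stage is recorded under the same tag, which leaves out female B and female C, it was -0.34. Cdk6 averaged 7.17 ± 0.633 RPKM in males and 12.1 ± 4.42 RPKM in females (SD, n = 3), a log2 change of 0.76 with an SE of 0.28 and an adjusted p of 0.961 by edgeR. It was 0.80 without male A, 0.90 without both male A and male C, and 0.09 over the 4 libraries with the same record tag. Female B and female C, left out there, are also the libraries of 1 embryo each, so the number of embryos, the form of the record and the sex cannot be told apart for them.

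Cdkn1b had the highest log2 change of the 35, 1.54 with an SE of 0.67 (adjusted p = 0.961 by edgeR), from 8.03 ± 6.57 RPKM in males and 23.3 ± 10.9 RPKM in females (SD, n = 3). It was 1.51 without male A, 0.65 without both male A and male C, and 0.50 over the 4 libraries with the same record tag. The sexes overlapped, since male D at 14.7 RPKM was above female A at 11.3 RPKM. Ccnd3 had a log2 change of -1.49 with an SE of 0.65, which became -0.23 without male A and -0.17 without both male A and male C. Plk1 had the lowest change of all, -1.62 with an SE of 0.81, which became -0.08 without male A and 0.96 without both male A and male C. The value of 0.96 rests on male D as the only male library, with 21 counts of Plk1. Mki67 had a log2 change of -1.32 with an SE of 0.59, which became -0.77 without male A and 0.31 without both. Where a subset leaves 1 library of a sex, that library is assumed to vary like the others. These genes were picked by their p-values and changes, and each value is a description.

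**Figure D5:**
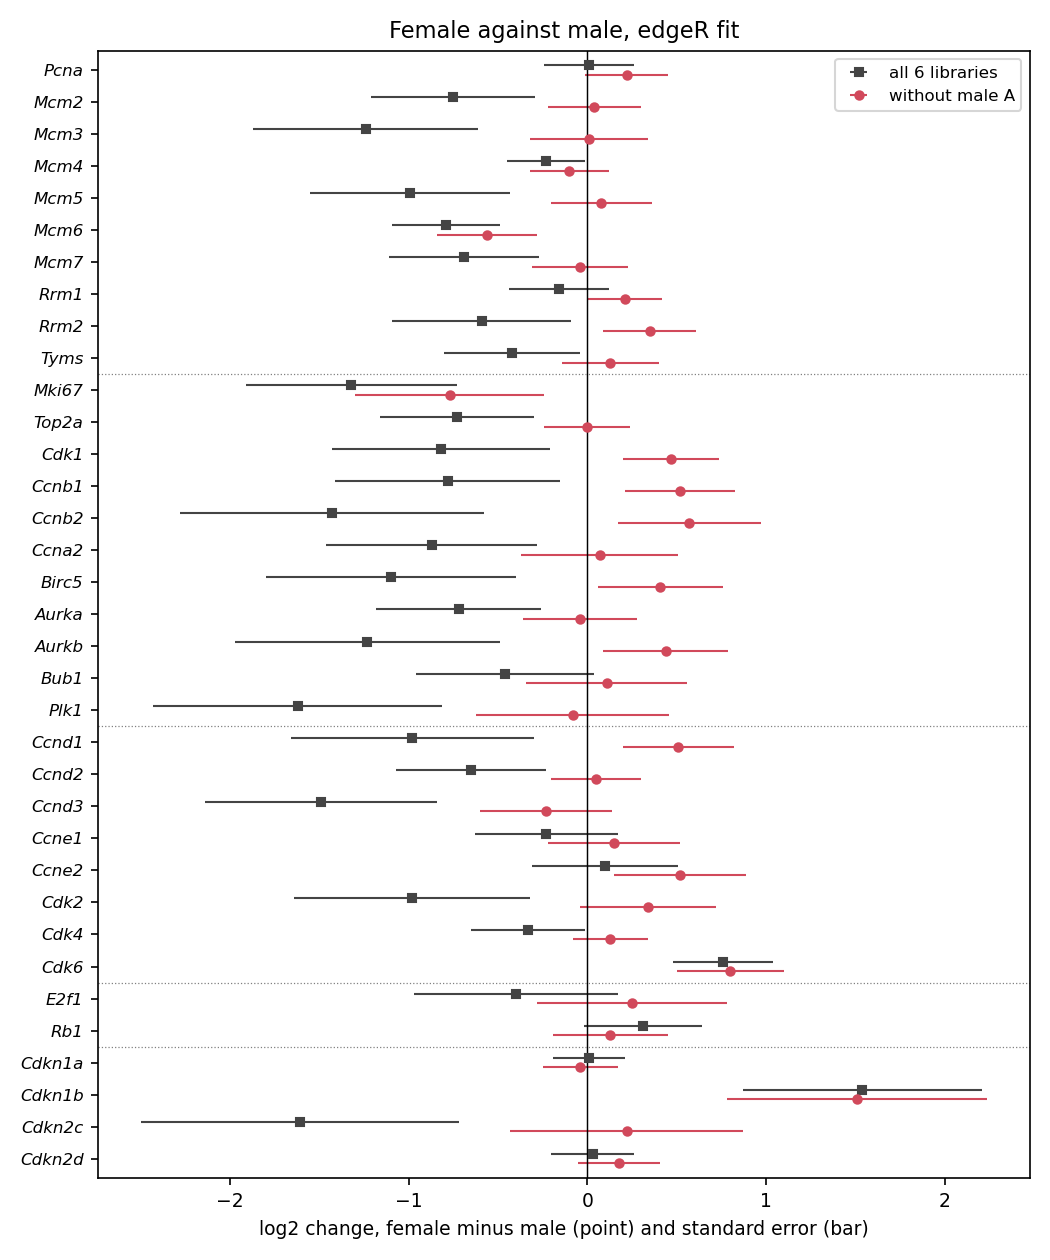
Log2 change of each of the 35 genes, female minus male, from the edgeR fit, with bars of 1 standard error, for all 6 libraries (black squares) and without male A (red circles). Most black squares lie left of 0 (28 of 35) and most red circles do not (8 of 35 are lower). Cdkn1b, Cdk6, Mcm6 and Mki67 are among the genes that keep their side.

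None of the genes of the other lists was called in either direction. Of the other mitotic genes 37 of 39 tested were lower in females (median log2 change -0.78), and without male A 19 of 40 were (median 0.02). Of the other replication genes 31 of 40 were lower (median -0.27), and without male A 18 of 40 (median 0.04). Without both male A and male C, 21 of 40 other mitotic genes (median -0.03) and 19 of 40 other replication genes (median 0.07) were lower. With all 6 libraries the other cyclins and Cdks, unlike the G1 cyclin and Cdk members, were higher in females for 14 of 17 (median 0.16). Without male A they were higher for 12 of 17 (median 0.05), and the members for 7 of 8 (median 0.25). Without both male A and male C they were higher for 5 of 17 (median -0.04), and the members for 6 of 8 (median 0.28). Of the Rb, E2F and DREAM genes 12 of 19 were higher (median 0.14), and without male A 15 of 19 (median 0.19). Without both male A and male C it was 12 of 19 (median 0.20).

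Glial markers were lower in females for 12 of 15 tested genes (median -0.62), and without male A for 7 of 15 (median 0.05). Fibroblast markers were lower for 7 of 8 (median -1.38), and without male A for 4 of 8 (median 0.02). Endothelial and pericyte markers were lower for 9 of 9 both with and without male A, with medians of -1.22 and -0.35. Without both male A and male C, 8 of 15 glial markers (median -0.02) and 3 of 8 fibroblast markers (median 0.03) were lower. Of the endothelial and pericyte markers 7 of 9 were (median -0.54).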

How the data were processed

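Per the labels' protocols, total RNA of sorted cells was reverse transcribed and amplified with the SMARTer Ultra Low Input kit, which has no molecular identifiers and does not mark strand, so intervals and detection limits cover counting error only. The authors deposited a table per library with the raw read count, exon length, CPM and RPKM of each gene. The submitters' processing notes name Subread, featureCounts 1.4.5 and the build GRCm38.p2. For the Subread version, strand and multi-mapping the settings are not given in the sources used. The deposited CPM and RPKM were only compared with the counts; RPKM and CPM in the text were computed anew from those counts and exon lengths by edgeR 4.0.16 (R 4.3.3) and its TMM scaling, except that the detection limits and Xist are CPM of plain totals.

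Female and male libraries were compared with edgeR's quasi-likelihood test after filterByExpr on sex. The alternatives were other scalings, filters, tools (DESeq2 1.42.0, limma 3.58.1) and covariates, and leaving out libraries. The fit was tested on simulated data. Pairs of genes with a shared role were compared by an exact permutation test. Positions and exon lengths of the members came from the deposited tables, and symbols and exon overlaps from GENCODE on GRCm38. Overlap shares refer to the GENCODE exons, whose length can differ from the exon length used for counting. Near-identical copies came from blastn 2.17.0 (95% identity over at least 150 bases), and promoter windows from RefSeq.

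The members and lists were chosen with earlier results of these data known. All 35 members are named, with the 2 genes of highest mean level of each other list. The rule also names list genes called between the sexes, and there were 0. The direction of each list without male A, and without both male A and male C, was added after the values were seen. Samples are separate pools of embryos, but whether pools share a litter is not given. Within a sex the libraries differed by far more than counting noise (chi-square per degree of freedom 24.0 to 141).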

Additional observations from a re-analysis of the deposited data

Results flagged for a closer look

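One library stood apart from the other 5 in each result below, and it was male A each time. The criterion, Dixon's at the 95% level, was applied to the 6 libraries together because each sex has only 3, and chance alone marks about 1 in 20 groups, while 12.4% of all tested genes were marked here. Values are male A against the lowest and highest of the others.

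Of the replication genes these were Mcm2 at 7.77 RPKM against 2.13 to 2.87, Mcm3 at 10.0 RPKM against 1.26 to 2.57, Mcm5 at 10.5 RPKM against 2.00 to 3.16 and Mcm7 at 6.53 RPKM against 1.97 to 2.82, for the helicase. The nucleotide synthesis genes were Rrm1 at 26.4 RPKM against 12.0 to 17.0, Rrm2 at 28.5 RPKM against 6.57 to 11.7 and Tyms at 6.40 RPKM against 2.23 to 3.66. Pcna, Mcm4 and Mcm6 were not marked.

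Of the mitotic genes, the cyclins and their kinase were Cdk1 at 12.8 RPKM against 1.96 to 3.81, Ccnb1 at 4.98 RPKM against 0.886 to 1.57, Ccnb2 at 18.9 RPKM against 1.4 to 3.79 and Ccna2 at 2.84 RPKM against 0.469 to 1.04. The other mitotic genes were Top2a at 8.45 RPKM against 2.41 to 3.58 and Birc5 at 7.72 RPKM against 1.01 to 1.91, and then Aurka at 7.43 RPKM against 1.84 to 3.48, Aurkb at 7.16 RPKM against 0.699 to 1.37 and Plk1 at 6.45 RPKM against 0.457 to 1.41. Mki67 and Bub1 were not marked.

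Of the G1 genes, the cyclins were Ccnd1 at 8.57 RPKM against 0.975 to 2.12, Ccnd2 at 15.1 RPKM against 4.38 to 6.59, Ccnd3 at 2.30 RPKM against 0.245 to 0.515 and Ccne1 at 1.67 RPKM against 0.666 to 1.03. The kinases were Cdk2 at 6.83 RPKM against 1.07 to 2.21 and Cdk4 at 77.7 RPKM against 34.6 to 47.0. The only inhibitor was Cdkn2c, at 1.5 RPKM against 0.124 to 0.261.

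The S phase sum of 148 RPKM (64.8 to 75.5 elsewhere), the mitotic sum of 78.9 RPKM (13.7 to 19.1) and their ratio of 1.88 (3.78 to 4.73) were marked as well. The glial and fibroblast marker sums were higher in male A too, and their part in these values was not tested.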

How the results depend on the processing

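No member was called between the sexes under any alternative but the replicate block. With a replicate block by letter (1 residual degree of freedom remains), 1 member was called (Cdkn1b, log2 change 2.27, adjusted p = 0.00714 by edgeR), beside 77 genes in all. No label says that the letters pair the samples. Deviations from the group mean correlated at -0.08 (A) and 0.05 (C) for libraries sharing a letter, and at -0.12 to 0.08 for the others. Such values from 3 libraries per sex cannot decide whether pools of a letter share a litter or day. The smallest adjusted p of a member was 0.256 to 1 when 1 library was left out. The number of members lower in females was 27 to 30 under other scalings, filters, tools and covariates, 9 without both male A and male C, and 8 to 32 when leaving out 1 library, with 8 without male A. Without both male A and male C, with male D the only male library left, the log2 change of Plk1 turned to 0.96 and that of Mki67 to 0.31. The median log2 change of the members was -0.36 by limma voom and -0.22 with the number of embryos as a term. The median coefficient of variation ran from 25.0% (without male A) to 67.5% when leaving out 1 library. Without division by length, Ccnb1 minus Ccnb2 turned to 0.29 and 8 of 11 pairs passed, against 10 with TPM: Ccnb1 and Ccnb2, Aurka and Aurkb, and Cdkn1b and Cdkn1a were lost and Rrm1 and Rrm2 was gained. The cause of these changes was not tested. Protein motifs were not analysed here. Low counts limit Mki67, E2f1, Bub1, Plk1 and Cdkn2c.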
